A study of Homo sapiens with 4 samples.

Results

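Integrins are cell surface receptors for the extracellular matrix, and the messenger RNA of 10 of their subunits was measured in single mammary epithelial cells: the alpha subunits ITGA2, ITGA3, ITGA5, ITGA6 and ITGAV, and the beta subunits ITGB1, ITGB4, ITGB5, ITGB6 and ITGB8. The subunits were chosen by name among the 19577 genes found in at least 1 plate, and all 10 were found in every plate. The cells were MCF10A, an untransformed human mammary epithelial line, carrying a GFP-tagged histone H2B (MCF10A_H2B_GFP). All plates shared that genotype, a fibronectin-coated glass dish, a medium with horse serum, EGF, hydrocortisone, cholera toxin and insulin, and 6 days of growth as a circular patch. In the low-resolution experiment the patch was phototagged as 3 concentric bands, each 1000 to 1500 µm wide. In the high-resolution experiment the outermost 250 µm, the next 250 µm and the inside were tagged apart. Each experiment had 2 patches, called replicates, and each patch filled 1 plate of 384 wells, so that plates 1 and 2 are replicates 1 and 2. The band from which each well was sorted was not analysed here, so the comparisons run across the cells of a plate, along an epithelial to mesenchymal transition (EMT) score, and between the experiments. All plates came from 1 cell line on 1 matrix protein, which limits them as a model of a tumor.

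An integrin is a pair of 1 alpha and 1 beta chain, and the pair sets what it binds. ITGB1 is the most widely shared beta chain and joins ITGA2 and ITGA3 (collagen and laminin receptors), ITGA5 (the classical fibronectin receptor), ITGA6 and ITGAV. ITGB4 pairs with ITGA6 in the hemidesmosome, which anchors basal epithelial cells to laminin. ITGAV also joins ITGB5, a vitronectin receptor, and ITGB6 and ITGB8, which bind the latent form of TGF-beta, a well-known inducer of EMT. During EMT epithelial cells lose cell to cell adhesion genes such as CDH1 and EPCAM and gain mesenchymal genes such as VIM and FN1.

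The promoters of 3 subunits are shown because these genes gave the clearest rises and the clearest fall along the EMT score: ITGA5 and ITGB1, which rose, and ITGB6, which fell. Each line holds the 250 bases before a RefSeq transcription start in GRCh38.p14, read 5′ to 3′ on the gene's strand, which is the minus strand for all 3. The capitals mark matches, on either strand, to CAGGTG (an E-box that ZEB and Snail repressors bind), TGANTCA (the AP-1 site) or GGGCGG (the GC box of Sp1).
ITGA5, chr12:54419267-54419516: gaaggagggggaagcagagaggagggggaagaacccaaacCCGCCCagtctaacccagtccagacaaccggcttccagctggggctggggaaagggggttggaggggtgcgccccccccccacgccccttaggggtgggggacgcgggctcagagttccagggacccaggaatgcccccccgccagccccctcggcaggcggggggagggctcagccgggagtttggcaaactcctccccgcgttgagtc
ITGB1, chr10:32958231-32958480: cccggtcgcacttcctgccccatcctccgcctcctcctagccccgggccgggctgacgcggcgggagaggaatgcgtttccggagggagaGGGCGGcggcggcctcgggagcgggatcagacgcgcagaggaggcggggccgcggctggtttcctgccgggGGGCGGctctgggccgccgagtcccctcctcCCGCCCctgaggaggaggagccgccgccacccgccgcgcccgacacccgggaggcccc
ITGB6, chr2:160200273-160200522: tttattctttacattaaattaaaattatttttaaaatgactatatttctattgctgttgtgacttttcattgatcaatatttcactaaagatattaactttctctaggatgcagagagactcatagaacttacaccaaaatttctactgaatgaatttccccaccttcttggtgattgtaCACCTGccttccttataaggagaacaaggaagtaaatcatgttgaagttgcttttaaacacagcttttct
The ITGA5 window was 70% G and C and held 1 GC box, which lay 210 bases before the start. The ITGB1 window was 78.4% G and C and held 3 GC boxes, at 58, 89 and 160 bases. The ITGB6 window was 30% G and C, held no GC box and held 1 CAGGTG match, read on the opposite strand, 70 bases before the start. Among 35116 windows of the same length in RefSeq, 17.5% held CAGGTG, 6.57% held TGANTCA and 42.6% held GGGCGG, and the median G and C content was 58%. CAGGTG was also found before 1 start of ITGA6 and 1 start of ITGB5. A match describes the letters of these windows and no binding was measured. RefSeq promoter entries were found for 8 of the 10 subunits, and ITGB1 had 2 of them, of which the outer is shown.

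The 4 plates held 1146 cells after filtering, 562 in the low-resolution and 584 in the high-resolution experiment, with a median of 30520 to 41248 transcripts per cell. The median mitochondrial share was 28.4 to 31.2%. The sample labels name no sequencing batch, but the name of the deposited table of low-resolution replicate 1 holds another flow cell identifier than those of the other 3 plates. All plates used the same 384 well barcodes, and no well had identical values in 2 plates. Of 11 mammary epithelial markers, 9 were seen in at least 20% of the cells of every plate, with a summed level of 70.9 to 93.4 transcripts per 10000. TP63 was seen in 2.58 to 4.12% of the cells, and KRT19 in 21.3 and 23.2% on low-resolution plates and 11.7 and 15.4% on high-resolution plates. The 14 markers of other cell types summed to 0.393 to 0.494, ADIPOQ was at 0 in every plate, and PECAM1 alone was seen in at least 20% of the cells of every plate.

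ITGB1 was the most abundant subunit. Its level, the mean over cells of transcripts per 10000 transcripts of the cell, was 6.25 on low-resolution plate 1, 5.50 on plate 2 and 7.56 on both high-resolution plates (mean 6.72 ± 1.02, SD, n = 4 plates). A transcript is counted once by a molecular tag at its 3′ end, so these levels were not divided by gene length. ITGB8 (2.77 ± 0.73), ITGA6 (2.42 ± 0.45) and ITGA3 (2.28 ± 0.29) followed. The order among these 3 changed between plates. ITGB5 (1.32 ± 0.48), ITGB4 (1.31 ± 0.25), ITGA5 (1.25 ± 0.54) and ITGAV (0.836 ± 0.10) formed a lower group, and ITGB6 (0.464 ± 0.16) and ITGA2 (0.405 ± 0.09) were lowest. The ranges over plates did not overlap at 3 steps of this order, between ITGB1 and ITGB8, between ITGA3 and ITGB5 and between ITGAV and ITGB6, while all other neighbors overlapped. Of 16 other integrin subunits, 3 were seen in at least 20% of the cells of every plate: ITGB2 (0.256 ± 0.08), a leukocyte beta chain, ITGAE (0.112 ± 0.01) and ITGA1 (0.101 ± 0.02).

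**Figure D1:**
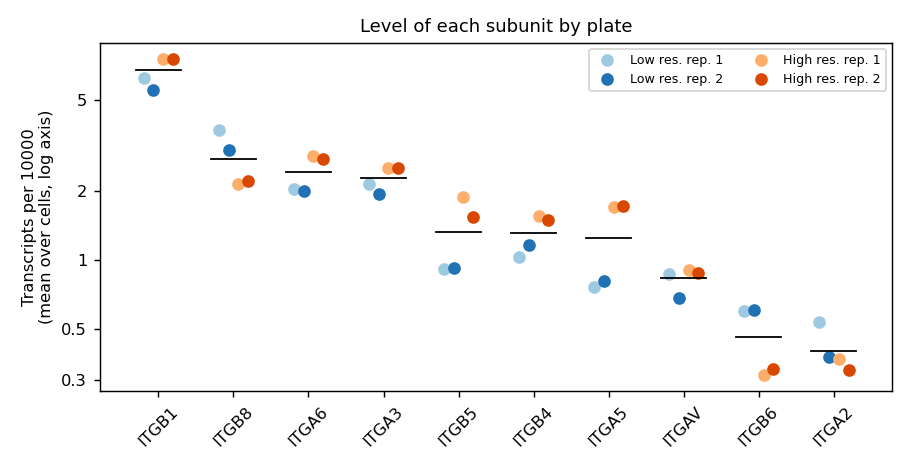
Level of each subunit (transcripts per 10000, mean over cells, log axis) in the 4 plates, with a line at the mean over plates. ITGB1 lies above all others in every plate. The high-resolution plates lie apart from the low-resolution plates for every subunit, including ITGA5 and ITGB5. For ITGAV the gap is narrow (0.877 on high-resolution plate 2 against 0.873 on low-resolution plate 1).

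The subunits were then followed along the EMT score. The score of a cell was its enrichment for a fixed list of mesenchymal genes, of which 97 to 100 were found in an experiment, minus that for epithelial genes, of which 64 were found. None of the 10 subunits is in either list. A subunit was said to follow the score upward when its Spearman rho with it across cells reached 0.3 in all 4 plates, and downward when it was at or below -0.3 in all 4. By this criterion 4 subunits went up (ITGB1, ITGA5, ITGB5 and ITGA3) and 1 went down (ITGB6). Of the 3 other integrin subunits detected, 0 went up and 0 went down (mean rho -0.191 for ITGB2, 0.062 for ITGA1 and 0.111 for ITGAE). Among the 7959 genes tested outside the 2 lists, 2.31% went up and 2.41% went down. The median of the mean rho was 0.285 for the 10 subunits and 0.019 for all genes tested. This contrast is a description only, because the subunits were chosen with earlier results of these data known. The genes tested also include genes seen in as few as 20% of the cells of a plate, while every subunit was seen in at least 48%. These correlations are descriptions over the 1146 cells, each plate on its own, and cells of 1 plate share a library and are not replicates.

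ITGB1 had the strongest relation, with rho of 0.656 and 0.653 on low-resolution plates and 0.799 and 0.785 on high-resolution plates. It ranked 5 among the 7959 genes by mean rho (0.723 ± 0.080). Its level went from 3.90, 3.48, 3.79 and 4.24 transcripts per 10000 in the lowest tercile of the score (low-resolution plates 1 and 2, then high-resolution plates 1 and 2) to 9.61, 8.99, 11.2 and 10.9 in the highest. The terciles did not overlap between plates, and the mean difference was 2.64-fold (log2 1.40 ± 0.11). ITGB1 was detected in 97.9 to 100% of the cells of either tercile.

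ITGA5, the fibronectin-receptor alpha chain, changed most in proportion. Its rho was 0.552 and 0.577 on low-resolution plates and 0.761 and 0.803 on high-resolution plates. In the lowest tercile its level was 0.185, 0.206, 0.317 and 0.343, in the same order of plates, and in the highest it was 1.65, 1.88, 3.05 and 3.19. The difference was 9.24-fold (log2 3.21 ± 0.05), and the high-resolution plates were higher in both terciles. At an equal depth of 10000 transcripts per cell the mean was close (log2 3.27 ± 0.36), but the plates spread more, at log2 3.75, 3.27, 3.17 and 2.88. ITGB5 rose 5.43-fold (log2 2.44 ± 0.31), with rho of 0.534, 0.566, 0.684 and 0.719. ITGA3 rose 2.51-fold (log2 1.33 ± 0.17), with rho of 0.554, 0.613, 0.614 and 0.570. Unlike ITGB1, ITGA5 and ITGB5, it had no higher rho in both high-resolution plates than in both low-resolution plates. At 10000 transcripts per cell the rho of ITGB5 was 0.423, 0.548, 0.579 and 0.541. Its high-resolution plate 2 then lay below its low-resolution plate 2, while ITGB1 and ITGA5 kept the order. ITGAV had a 2.11-fold higher level in the highest tercile (log2 1.08 ± 0.35), but its rho of 0.326, 0.274, 0.447 and 0.565 missed the limit in low-resolution replicate 2.

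**Figure D2:**
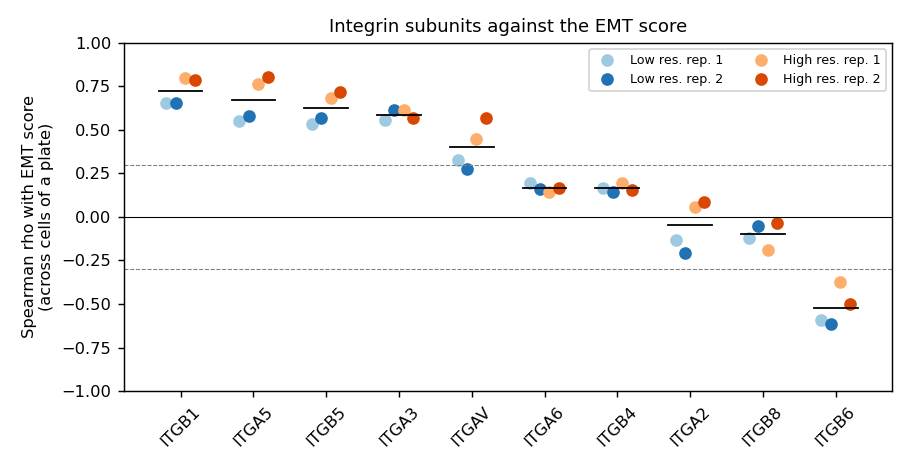
Spearman rho between each subunit and the EMT score across the cells of each plate, with a line at the mean over 4 plates and dashed lines at 0.3 and -0.3. ITGB1, ITGA5, ITGB5 and ITGA3 lie above 0.3 in every plate, ITGB6 below -0.3 in every plate, and ITGA2 is negative in the low-resolution and positive in the high-resolution plates.

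ITGB6 was the only one of the 10 subunits with rho at or below -0.3 in all plates. Its rho was -0.590 and -0.616 on low-resolution plates and -0.376 and -0.503 on high-resolution plates. The level in the lowest tercile was 1.06, 1.02, 0.544 and 0.673 transcripts per 10000, against 0.117, 0.125, 0.149 and 0.116 in the highest. The mean difference was 6.28-fold (log2 -2.65 ± 0.59). The level in the highest tercile was thus low and similar in both experiments, and the plates differed more in the lowest tercile. Terciles were cut within each plate on scores fitted per experiment. The same tercile need not hold the same cell states in both experiments. Among single markers, ITGB6 had a mean rho of 0.479 with CDH1, 0.434 with EPCAM, -0.281 with VIM and -0.423 with FN1. These markers are in the lists that make up the score, so the values are not independent of it. For comparison, ITGA5 had a mean rho of -0.525 with CDH1 and 0.515 with VIM.

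ITGB8, which like ITGB6 binds latent TGF-beta, showed little relation with the score. Its rho was -0.119, -0.053, -0.189 and -0.036, and its level went from 2.97 in the lowest to 2.64 in the highest tercile (log2 -0.19 ± 0.21), lower in 3 of 4 plates. The hemidesmosome pair ITGA6 and ITGB4 had small positive values on every plate and missed the limit. ITGA6 had rho of 0.197, 0.161, 0.144 and 0.168 and a 1.28-fold higher level in the highest tercile (log2 0.35 ± 0.05). ITGB4 had rho of 0.165, 0.140, 0.195 and 0.156 and a 1.46-fold higher level (log2 0.54 ± 0.03), and for both the tercile difference had the same sign in 4 of 4 plates. ITGA2, the collagen-receptor alpha chain, had rho of -0.133 and -0.208 on low-resolution plates and 0.058 and 0.087 on high-resolution plates. The mean level of ITGA2 in low-resolution replicate 1 (0.537) stood above the other plates (0.332 to 0.379), and 1 cell there held 61.5 transcripts.

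**Figure D3:**
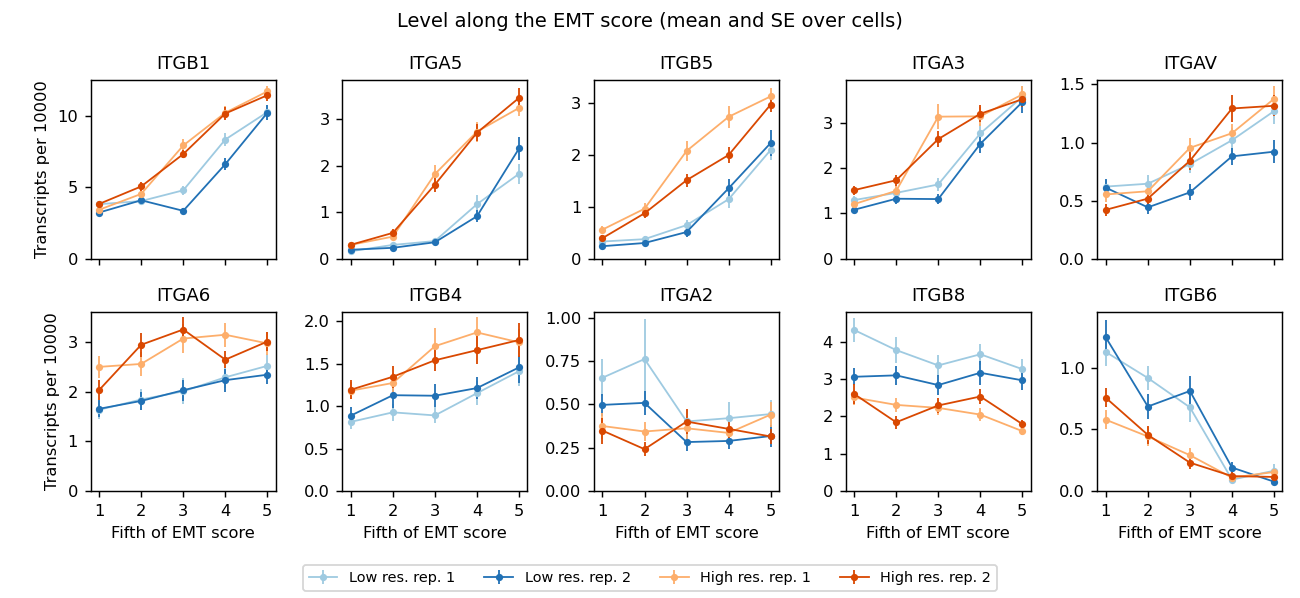
Level of each subunit (transcripts per 10000, mean and SE over cells) in 5 equal groups of cells ordered by EMT score, 1 line per plate. ITGB1, ITGA5, ITGB5 and ITGA3 climb and ITGB6 drops in all plates. Those that climb are higher in the middle group on the high-resolution plates, with groups cut within each plate.

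Mitochondrial share moved with the score (mean rho -0.401, range -0.481 to -0.299), while total count did so little (-0.116 to 0.061). With both held constant the mean rho was 0.679 for ITGB1, 0.640 for ITGA5, 0.581 for ITGB5, 0.537 for ITGA3 and -0.483 for ITGB6. When every cell was thinned to 10000 transcripts the values were smaller: 0.607 for ITGB1, 0.559 for ITGA5, 0.523 for ITGB5, 0.455 for ITGA3 and -0.357 for ITGB6. ITGAV went from a mean rho of 0.403 to 0.236 at that depth, with 0.229, 0.131, 0.215 and 0.369 on the 4 plates. ITGA6 went from 0.168 to 0.090 with total count and mitochondrial share held constant, and was at 0.020 on high-resolution plate 2. At 10000 transcripts per cell ITGB6 missed the limit in high-resolution replicate 1 (rho -0.264), so that 0 subunits went down in all plates. The tercile fold of ITGB6 changed less at that depth, to 5.72-fold lower.

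As a share of subunit transcripts, the makeup of the subunits changed along the score. The 5 alpha subunits together went from 4.69 ± 0.34 transcripts per 10000 in the lowest tercile to 9.94 ± 1.40 in the highest, and the 5 beta subunits from 9.18 ± 0.75 to 16.9 ± 1.1. Among the alpha subunits, ITGA5 went from 5.55 ± 1.37% to 24.1 ± 4.8%, and ITGA6 from 43.9 ± 4.5% to 26.4 ± 0.9%. ITGA6 was thus the leading alpha chain at low scores, and ITGA3 led at high scores with 34 ± 4.4%. Among the beta subunits, ITGB1 went from 42.1 ± 3.9% to 60.2 ± 2.3%, and ITGB5 from 5.03 ± 2.18% to 14 ± 2.7%. ITGB8 went from 32.1 ± 6.4% to 15.9 ± 5.8%, and ITGB6 from 8.92 ± 2.49% to 0.752 ± 0.075%. The share of ITGAV stayed at 11.9 ± 1.9% and 11.8 ± 0.8%, within the spread between plates.

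Partner chains were then compared cell by cell. Of 9 known pairs among the 10 subunits, 3 had rho of at least 0.3 in all 4 plates, against 0.151% of all pairs of genes tested. ITGA5 with ITGB1 had rho of 0.477, 0.565, 0.685 and 0.701 (mean 0.607). ITGA3 with ITGB1 had 0.582, 0.553, 0.608 and 0.579 (mean 0.580). ITGAV with ITGB1 had 0.314, 0.368, 0.470 and 0.512 (mean 0.416), and it dropped below the limit in at least 1 plate when cells were thinned, when mitochondrial genes were left out, without the mitochondrial limit and with total count and mitochondrial share held constant. The other 6 pairs missed the limit. ITGAV with ITGB5 reached 0.478 and 0.450 in the high-resolution plates and 0.235 and 0.250 in the low-resolution plates. ITGA6 with ITGB4, the hemidesmosome pair, had rho of 0.098 and -0.006 on low-resolution plates and 0.207 and 0.308 on high-resolution plates. Its mean was 0.152, against 0.302 for ITGA6 with ITGB5, which are not known to pair.

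Combinations of subunits that do not form a receptor were read in the same way. Of the 36 combinations that are not known pairs, 4 passed the same limit: ITGA5 with ITGB5 (mean 0.611), ITGB1 with ITGB5 (0.583), ITGA3 with ITGA5 (0.523) and ITGA3 with ITGB5 (0.510). All 4 joined subunits that rose with the EMT score. The median rho was 0.20 over the 9 known pairs and 0.107 over the other 36. Once the EMT score was held constant the medians were 0.134 and 0.108, and 0 of the 9 pairs passed in all plates. ITGA5 with ITGB1 then had a mean rho of 0.219, ITGA3 with ITGB1 0.277 and ITGA6 with ITGB4 0.128. ITGAV with ITGB6 changed sign, from -0.103 to 0.126. These values share subunits and libraries and were not tested.

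**Figure D4:**
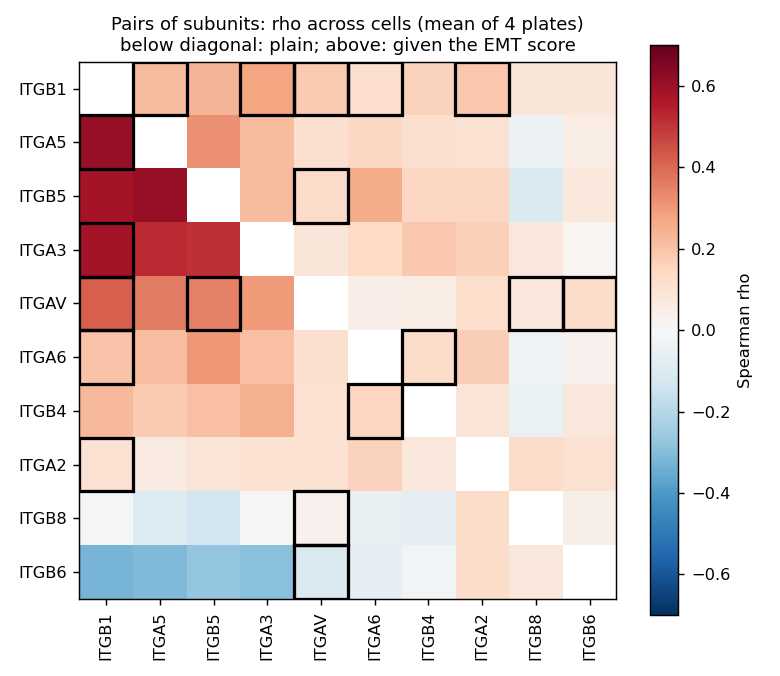
Mean Spearman rho over 4 plates for all combinations of 2 subunits, as measured (below the diagonal) and with the EMT score held constant (above it), with known partners outlined. The block of ITGB1, ITGA5, ITGB5 and ITGA3 is strong below the diagonal, at 0.510 to 0.611, and pale above it.

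The 3 genes whose pattern across cells was most like that of each subunit were taken by mean rho over the plates. ITGB1 was nearest to FN1, which encodes fibronectin (0.687), EMP3 (0.666) and the secreted protease HTRA1 (0.664). ITGA5 was nearest to EMP3 (0.665), the protease inhibitor SERPINE2 (0.662) and the metallothionein MT2A (0.624). ITGB5 was nearest to the ectoenzyme NT5E (0.660), ANXA5 (0.645) and EMP3 (0.639). For both ITGA3 (0.580) and ITGAV (0.416) the nearest gene was their partner ITGB1. Near ITGB6 were the epithelial sorting adaptor AP1M2 (0.513) and FXYD3 (0.506). FN1, EMP3 and AP1M2 are in the lists that make up the EMT score, so their places here are not independent of it. ITGA2 was nearest to LAMB3 (0.268), which encodes a chain of laminin-332, and LYPD3 (0.212) was also among its 3. ITGB4 was nearest to TGFBI (0.320). ITGA6 was nearest to HSP90AA1 (0.375), SH3KBP1 (0.373) and ANXA2 (0.365), and ITGB8 to the noncoding RNA MALAT1 (0.383), AHR (0.354) and CTSD (0.321).

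Genes that work with integrins were read against the same 2.31% and 2.41% background. Of 14 integrin ligand genes that were detected and outside the EMT lists, 4 rose with the score: the laminin chains LAMB1 (mean rho 0.587 ± 0.014) and LAMC1 (0.502 ± 0.046), the collagen COL8A1 (0.566 ± 0.068) and thrombospondin THBS1 (0.473 ± 0.103). None of the 14 fell, and LAMA3, a chain of laminin-332, was lowest at -0.172 ± 0.024. Of 22 adaptor and focal adhesion genes, 5 rose and 0 fell. The risers were the actin crosslinkers FLNA (0.696 ± 0.043) and ACTN1 (0.542 ± 0.054), ZYX (0.610 ± 0.047), TGFB1I1 (0.489 ± 0.076) and TLN1 (0.459 ± 0.053), the talin that binds beta tails. TNS4 (-0.120 ± 0.086) and BCAR1 (-0.110 ± 0.053) were lowest and did not pass. Of 11 hemidesmosome and integrin-bound tetraspanin genes, the tetraspanin CD63 rose (0.40 ± 0.050), and the tetraspanins CD9 (-0.648 ± 0.048) and CD82 (-0.596 ± 0.104) fell. The hemidesmosome linker DST had a mean rho of 0.357 ± 0.075 and missed the limit in at least 1 plate. The list's median rho was 0.070, against 0.268 for the ligands and 0.223 for the adaptors.

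The high-resolution plates were then compared with the low-resolution plates, using transcripts summed over the cells of each plate and edgeR's quasi-likelihood test with Benjamini-Hochberg adjustment over 12437 genes. Of the 10 subunits, 5 were higher and 2 lower in the high-resolution plates at an adjusted p under 0.05. Over all genes, 6.26% were higher and 6.18% lower. ITGA5 differed most, at 76.9 and 87.5 CPM (counts scaled to a common library size) on low-resolution plates and 169.9 and 174.9 on high-resolution plates (log2 1.07 ± 0.11, SE, adjusted p = 0.000236). ITGB5 was at 95.8 and 102.1 against 190.03 and 162.7 (log2 0.83 ± 0.12, adjusted p = 0.00109). For both genes the plates of the experiments did not overlap. The hemidesmosome pair was also higher, ITGA6 by log2 0.50 ± 0.10 (adjusted p = 0.00859) and ITGB4 by log2 0.53 ± 0.12 (adjusted p = 0.0150). ITGB1 was higher by log2 0.37 ± 0.10 (adjusted p = 0.0364), a call that was lost when any 1 of the 4 plates was left out (adjusted p = 0.0619 to 0.141).

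ITGB6 and ITGB8, which bind latent TGF-beta, were lower in the high-resolution plates. ITGB6 was at 57.9 and 59.02 CPM on low-resolution plates and 34.5 and 31.4 on high-resolution plates (log2 -0.83 ± 0.12, adjusted p = 0.00159). ITGB8 was at 330.5 and 282.9 against 210.8 and 204.4 (log2 -0.56 ± 0.11, adjusted p = 0.00758). ITGA3 was higher by log2 0.33 ± 0.10 but missed the threshold (adjusted p = 0.0592, against 0.0483 in DESeq2). ITGA2 (log2 -0.38 ± 0.16, adjusted p = 0.126) and ITGAV (log2 0.18 ± 0.13, adjusted p = 0.406) did not pass. Their values rested on single low-resolution plates. ITGA2 was at log2 -0.15 without low-resolution replicate 1 and -0.58 without replicate 2 (adjusted p = 0.613 and 0.0329), and ITGAV was at 0.36 and 0.02 (adjusted p = 0.127 and 0.926). Both high-resolution plates lay above both low-resolution plates for 6 subunits, against 28.3% of all genes, and below them for 3, against 29%.

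Without low-resolution replicate 1, the plate with the other identifier in its table's name, 4 subunits passed: ITGA5, ITGA6, ITGB5 and ITGB6. ITGB4 (adjusted p = 0.0869) and ITGB8 (adjusted p = 0.0524) then missed the threshold with ITGB1. Over all genes the calls went from 1547 to 982 in that comparison. The EMT markers moved between the experiments too, with CDH1 lower (log2 -0.68 ± 0.12, adjusted p = 0.00321), VIM higher (log2 0.94 ± 0.13, adjusted p = 0.00117), FN1 higher (log2 0.77 ± 0.11, adjusted p = 0.00127) and EPCAM not passing (log2 -0.11 ± 0.11, adjusted p = 0.566). Their part in the integrin differences was not tested. More cells of a kind and more RNA per cell cannot be told apart in summed counts, and the experiment and the share of cells sorted from each band cannot be told apart either.

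**Figure D5:**
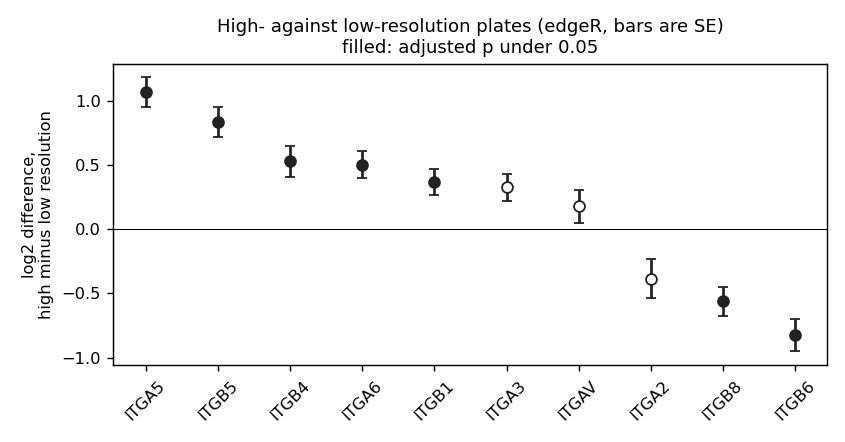
Difference between the high- and low-resolution plates in each subunit (log2, bars are SE, 2 plates against 2, edgeR on summed counts), filled where the adjusted p is under 0.05. ITGA5 (1.07) and ITGB5 (0.83) are highest, and ITGB6 (-0.83) is lowest.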

How the data were processed

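Single MCF10A cells were profiled by SORT-seq, a plate-based method with molecular tags (UMIs), in 2 low-resolution and 2 high-resolution plates. The deposited tables hold expected counts of transcripts per gene and well, which the authors obtained from UMI counts with a collision correction. The submitters' processing notes name STAR 2.7.3a, Seurat 4 and hg38, while for the annotation and the strand setting the sources used here give nothing. For thinning to equal depth, corrections were undone with 4096 tags, which gave whole UMIs. All other levels, correlations and tests used the expected counts, which were summed per plate and rounded before count tests. Spike-ins (0.833 to 1.38% of transcripts) were dropped. Cells with 2000 to 9000 genes and under 40% mitochondrial transcripts were kept, 1146 of 1536 wells, and values were scaled to 10000 per cell and log-transformed. Mesenchymal and epithelial scores were computed per experiment with the GSVA method in gseapy 1.3.1, and their difference is the EMT score. A gene was tested when 20% or more of the cells of each plate held a UMI of it. Terciles hold equal numbers of cells, and 8 to 27 cells per plate lay within 0.05 of a boundary. Correlations were Spearman's, in Python 3.11.15 with scipy 1.17.1, and partial values used ranks. Summed counts were tested with edgeR 4.0.16 (filterByExpr, TMM, quasi-likelihood, all 4 plates, no covariates), with DESeq2 1.42.0 as an alternative, in R 4.3.3. These p-values set the difference between experiments against the spread between 2 patches per experiment, which is estimated with help from the other genes. The scripts were tested on simulated data with 200 changed genes.

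The genes named are the 10 subunits, the 3 nearest genes of each, the 2 highest and 2 lowest of each list and 4 EMT markers, and other list members that passed were named after their values were seen. Some of the nearest genes are not reported here. The members and lists were chosen with earlier results of these data known. Alternatives were equal depth, the mitochondrial limit, mitochondrial genes left out, other scores, other limits on rho, other filters, a replicate block and leaving out each plate. In GENCODE annotation of GRCh38, exons of ITGA5, ITGA6, ITGAV, ITGB1 and ITGB8 overlap noncoding genes on the opposite strand, and those of ITGB6 overlap AC092153.1 on the same strand, so reads of these could not be separated. ITGA5 lies at chr12:54395261-54419460, ITGB1 at chr10:32900319-33005792 and ITGB6 at chr2:160099666-160200313, all on the minus strand.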

Additional observations from a re-analysis of the deposited data

Results flagged for a closer look

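ITGA2 stood out because its relation with the EMT score had opposite signs in the 2 experiments. Its rho was -0.133 and -0.208 on low-resolution plates and 0.058 and 0.087 on high-resolution plates, a difference between the experiment means of 0.243. At equal depth the 4 values were -0.136, -0.204, 0.103 and 0.078. The level difference between the highest and lowest tercile of the score also changed sign, with log2 values of -0.77 and -0.81 on low-resolution plates and 0.13 and 0.22 on high-resolution plates, a difference of 0.963. Neither difference was tested.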

How the results depend on the processing

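The 4 subunits that rose with the EMT score, ITGB1, ITGA5, ITGB5 and ITGA3, did so in all 12 alternatives, and ITGAV joined them at a limit of 0.2 and without low-resolution replicate 2. The 1 that fell, ITGB6, gave 0 at equal depth and at a limit on rho of 0.4. The 3 partner pairs became 0 with the EMT score held constant. Of 70 mean rho values of single subunits under an alternative, 62 moved by less than 1 SD between plates and 8 by more, of which 6 came from equal depth. The sign changed for 1 of the 70, in ITGA2, whose mean rho went from -0.049 to 0.0068 without low-resolution replicate 2. Leaving out 1 plate at a time gave 4 to 5 rising subunits, 3 pairs and 4 to 7 subunits that differed between experiments, against 7 with all plates. The lowest, 4, came without low-resolution replicate 1. With the replicate block 7 subunits passed. Replicate differences of the 2 experiments had a correlation of -0.024 over 12437 genes, so no effect shared by replicate number was seen. With 2 plates per experiment this cannot tell whether the plates were paired by design. The calls over all genes went from 1547 to 2023 with the block, to 982 and 987 without low-resolution replicate 1 and high-resolution replicate 2, to 1016 at equal depth and to 1050 in DESeq2. ITGA3 passed without the low-count filter (adjusted p = 0.0485) and in DESeq2 (0.0483), and ITGA2 without low-resolution replicate 2 (0.0329). With 2 plates per experiment the cause of these changes was not tested.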

Other observations

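Among genes of the lists, LAMB3, a laminin-332 chain and the gene nearest to ITGA2, had rho with the EMT score of -0.127 and -0.111 on low-resolution plates and 0.191 and 0.129 on high-resolution plates. LPXN, a paxillin relative, had -0.020, -0.068, 0.127 and 0.111. COL17A1, the hemidesmosome collagen, had -0.347 and -0.435 on low-resolution plates and -0.277 and -0.289 on high-resolution plates, and so missed the limit in both high-resolution plates. These 3 genes were singled out after their values were seen, and no difference between experiments was tested for them.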
